A study of Mus musculus with 11 samples.

Results

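The insulin and IGF signalling genes described here are 10 genes: Irs4, Irs1, Irs2, Insr, Igf1r, Igf1, Igfbp2, Igfbp3, Igfbp4 and Igfbp5. They were taken by mouse symbol from the 27179 genes counted in the neural tissue of day 9.5 mouse embryos, and all 10 passed the filter on low counts. Irs4 was chosen by its higher CPM in the affected females than in the controls, so those values are given as a description with no test. The other 9 are the ligand, receptors, adaptors and binding proteins of the same system.

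Embryos of 3 kinds were compared, all on the C57BL/6 background and all carrying 1 mutant copy of Bim, the pro-apoptotic gene also called Bcl2l11. The 4 affected females and the 4 control males were p53-/- Bim+/-, and the 3 control females were p53+/+ Bim+/-. Each library came from the dissected brain of 1 embryo, cut behind the otic vesicle. What the affected label refers to is not stated. Affected and control females therefore differ in p53 genotype and in the affected label, and affected females and control males differ in sex and in that label, so in each comparison these differences cannot be told apart. No wild-type Bim embryo was analysed here. Each p-value sets a difference between groups against the spread between embryos within groups, which was estimated from all 3 groups together. Libraries held 8211942 to 11218682 counts.

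Insulin and the insulin-like growth factors bind receptor tyrosine kinases on the cell surface. The activated receptor phosphorylates docking proteins of the IRS family, which recruit PI3-kinase and so activate AKT and mTOR, while AKT holds FoxO transcription factors out of the nucleus. IGF-binding proteins are secreted, bind IGFs outside the cell and set how much reaches the receptor, and proteases such as PAPP-A free the bound ligand. In the mouse embryo the system is best known for setting growth, with Igf2 as a main ligand before birth.

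Levels are given as CPM, read counts scaled to library size, after TMM scaling, which also corrects for library composition, and levels of different genes are compared per kilobase of gene length. Irs4 lies on the X chromosome at chrX:141710998-141725217 on the minus strand (GRCm38.p6), the other adaptors on chromosomes 1 (Irs1) and 8 (Irs2). Igfbp2 and Igfbp5 are neighbours on chromosome 1, transcribed towards each other and separated by 5590 bases. Promoter sequences were found in the RefSeq table for 9 of the 10 genes, all but Insr. The stretches shown are the 250 bases before the start of the 3 adaptor genes, printed because they hold the sequence that these genes have in common. Capitals mark the shared run, and all 3 lie on the minus strand of GRCm38.p6, at chrX:141725218-141725467 for Irs4, chr8:11008930-11009179 for Irs2 and chr1:82291440-82291689 for Irs1.
Irs4: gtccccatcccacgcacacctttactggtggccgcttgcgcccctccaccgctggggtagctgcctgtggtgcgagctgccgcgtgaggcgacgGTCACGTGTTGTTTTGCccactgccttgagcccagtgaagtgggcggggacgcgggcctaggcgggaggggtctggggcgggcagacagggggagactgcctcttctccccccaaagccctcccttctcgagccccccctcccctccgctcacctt
Irs2: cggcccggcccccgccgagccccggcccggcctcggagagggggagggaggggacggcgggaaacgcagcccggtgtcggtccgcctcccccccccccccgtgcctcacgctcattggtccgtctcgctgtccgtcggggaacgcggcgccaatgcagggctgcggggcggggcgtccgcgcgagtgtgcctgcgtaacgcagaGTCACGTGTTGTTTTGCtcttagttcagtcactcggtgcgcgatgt
Irs1: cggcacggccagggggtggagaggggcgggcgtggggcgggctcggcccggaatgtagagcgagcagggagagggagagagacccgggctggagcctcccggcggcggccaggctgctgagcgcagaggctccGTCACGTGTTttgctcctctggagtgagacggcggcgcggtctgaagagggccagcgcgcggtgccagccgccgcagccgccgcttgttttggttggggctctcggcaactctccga
The Irs4 and Irs2 promoters had 1 identical run of 17 bases, GTCACGTGTTGTTTTGC, found on either strand in 2 of 32817 RefSeq promoters of 300 bases, those of these 2 genes. It began at position -156 relative to the start of Irs4 and at -46 relative to that of Irs2. The longest run that Irs1 had in common with both was its first 10 bases, GTCACGTGTT, at -117, which 24 promoters held. This likeness was noticed after the sequences had been seen. The 17 bases held the E-box CACGTG, found in 7.15% of all promoters, and next to it TGTTTTG, the core of the insulin response element, found in 6.29%, both searched on both strands. In Irs1 the TGTTTTG overlapped the end of the E-box, and a second match lay closer to the start. Among the other members only 1 of the 2 Igfbp2 promoters held the E-box and none held TGTTTTG. The FoxO core GTAAACA, in 3.65% of promoters, and the p53 half-site, in 8.36%, had no match in the 10 promoters of the 9 genes. A match describes letters and is not evidence of binding.

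Irs4 had the largest log2 fold change of the 10 genes in both comparisons of affected females. Irs4, an X-linked docking protein of the insulin receptor substrate (IRS) family, had 124, 147, 179 and 137 CPM in the 4 affected females, against 68.0, 69.5, 74.6 and 86.5 CPM in control males and 84.9, 64.0 and 59.0 in the control females. Every affected female lay above every control embryo, and control male 4 and control female 1 were the highest of their groups. The mean was 147 ± 23.3 CPM in affected females (SD, n = 4), 74.6 ± 8.40 in control males (n = 4) and 69.3 ± 13.7 CPM in control females (n = 3), and later ± values are SDs over the same embryos. That was 2.12-fold the level of control females, a log2 fold change of 1.09 with a standard error of 0.14. Against control males it was 1.96-fold, a log2 fold change of 0.97 with a standard error of 0.13. Both comparisons share the affected females, and these values chose the gene. In bulk RNA, more cells that express a gene and more RNA per cell cannot be told apart. Without control female 1 and control male 4, the log2 fold change of Irs4 was 1.26 against control females and 1.06 against control males. Since both had the highest Irs4 of their groups, leaving them out lowers the control means by construction. These values are therefore no support for the rise. The comparison that did not choose Irs4, control males against control females, gave a log2 difference of 0.11 with a standard error of 0.14, and the CPM ranges overlapped (adjusted p = 0.918 by quasi-likelihood F test in edgeR).

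**Figure D1:**
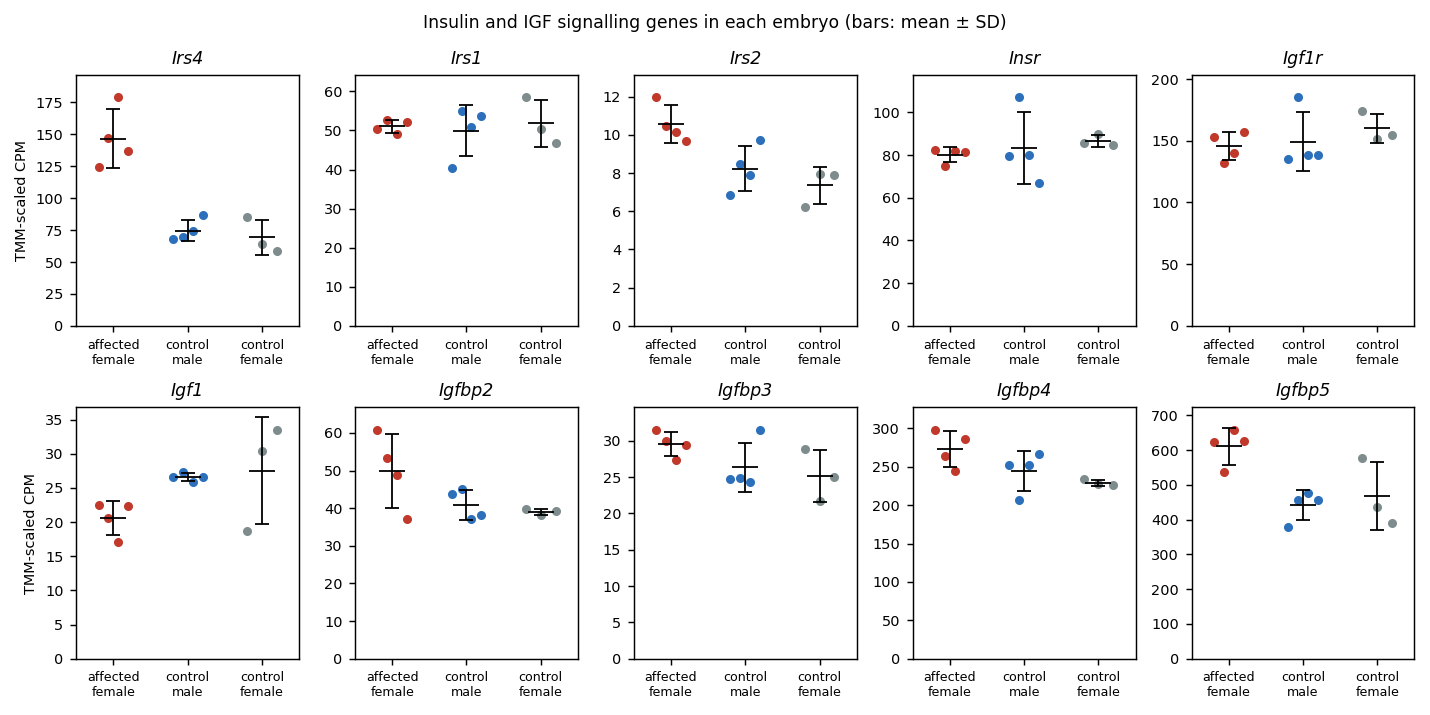
TMM-scaled CPM of the 10 genes, 1 panel a gene, with 1 point per embryo and bars for mean ± SD, in affected females (left), control males (middle) and control females (right). The 4 affected females have 124 to 179 CPM of Irs4, above all control embryos, while Irs1, Insr and Igf1r lie at similar heights in the 3 groups.

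Irs4 was also the most abundant of the 3 adaptors per length in every group. Per kilobase, Irs4 averaged 23.5 CPM in affected females, 11.9 in control males and 11.1 in control females, Irs1 5.57, 5.45 and 5.65, and Irs2 2.63, 2.05 and 1.83. As a share of the summed level of Irs1, Irs2 and Irs4 per length, Irs4 made up 70.2 to 78.4% in affected females, 57.8 to 64.0% in control males and 57.2 to 63.1% in control females. The 3 adaptors together averaged 31.7 ± 3.53 CPM per kilobase in affected females, 19.4 ± 2.09 in control males and 18.6 ± 2.62 in control females. Because Irs4 enters both the share and the sum, these follow from the gene's selection and carry no test.

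Among the 9 other genes, 2 were called higher and 0 lower in affected than in control females at an adjusted p under 0.05 (quasi-likelihood F test in edgeR, Benjamini-Hochberg over 14542 genes). That is 22.2% of the 9, and 28.0% of all tested genes were called in this comparison, 13.0% higher and 15.0% lower. Against control males 1 of 9 was called, higher, or 11.1%, where 20.2% of all genes were called, 9.51% higher and 10.7% lower. In either direction the members' shares lay below those of all genes. The calls were all higher, and in that direction alone they lay above, at 22.2% where 13.0% of all genes were called and 11.1% where 9.51% were, which in 9 genes is a difference of less than 1 gene. The median log2 fold change of the 9 was 0.23 against control females, where that of all genes was -0.00, and 0.16 against control males, where that of all genes was -0.02. Between control males and control females 0 of 9 were called, where 0.144% of all genes were, 0.0481% higher and 0.0963% lower. At an unadjusted p under 0.05 the count there was also 0, and DESeq2 and limma voom called 0.

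**Figure D2:**
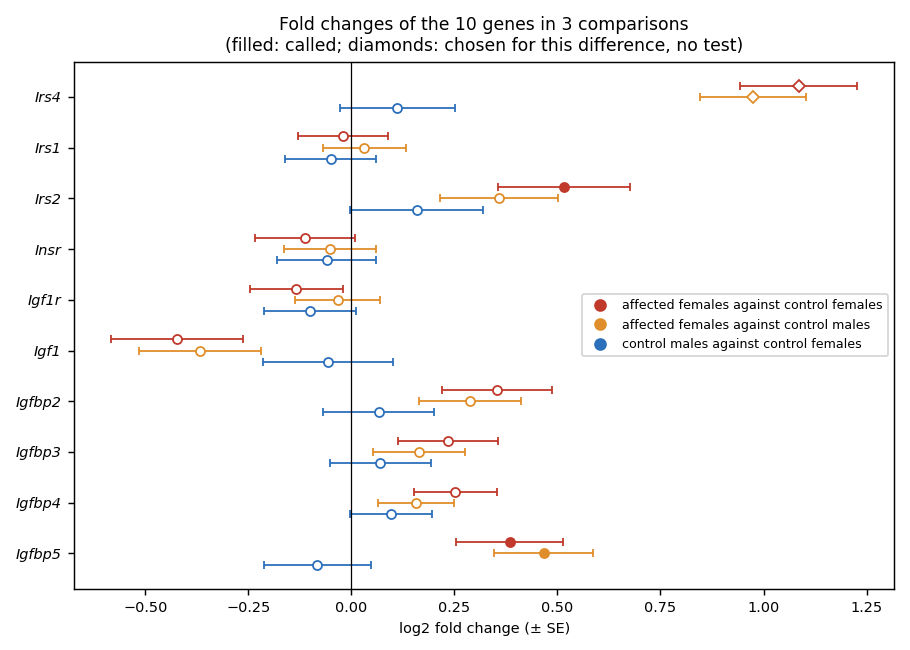
Log2 fold change (x axis, ± SE) of the 10 genes (y axis) in affected females against control females, affected females against control males, and control males against control females. Filled circles are called, open circles are not, and diamonds mark Irs4, which was chosen for this difference and carries no test; Irs4 lies at 1.09 and 0.97 in the comparisons of affected females and at 0.11 between the controls.

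Of the other adaptors, Irs2 was called against control females and Irs1 in no comparison. Irs2, the adaptor best known for its role in liver and pancreatic beta cells, had 12.0, 10.5, 10.2 and 9.69 CPM in affected females, against 6.86, 8.48, 7.89 and 9.72 in control males and 6.23, 7.95 and 7.88 in control females. All 4 affected females were above the 3 control females, while control male 4 overlapped them. Irs2 rose against control females, with a log2 fold change of 0.52, a standard error of 0.16 and an adjusted p of 0.0279. Against control males the log2 fold change was 0.36 with a standard error of 0.14, which was not called (adjusted p = 0.0854). It passed without control male 4, at 0.45 (adjusted p = 0.0291). Since control male 4 had the highest Irs2 of its group, leaving it out lowers the control mean by construction, and this pass is no support. Irs2 had 100 to 120 raw counts per library in affected females, 73 to 107 in control males and 50 to 85 in control females. Its call against control females was lost when affected female 1 (adjusted p = 0.0682), affected female 3 (0.0613) or control female 1, 2 or 3 (0.0701, 0.0585 and 0.0643) was left out. Irs1, the adaptor through which insulin and IGF-1 drive growth in many tissues, had 49.1 to 52.6 CPM in affected females, 40.4 to 54.9 in control males and 46.7 to 58.4 in control females. Its ranges overlapped in all comparisons, and its log2 fold change was -0.02 with a standard error of 0.11 against control females (adjusted p = 0.907) and 0.03 with a standard error of 0.10 against control males (adjusted p = 0.844).

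Neither receptor passed the test in any comparison. Igf1r, the receptor for both IGFs, had 132 to 158 CPM in affected females, 135 to 185 in control males and 151 to 174 in control females. Insr, the insulin receptor, had 74.8 to 82.6 CPM in affected females, 67.0 to 107.0 in control males and 84.7 to 90.0 in control females. The affected females lay below the control females for Insr without overlap and inside the range of the control males. The log2 fold change of Insr was -0.11 with a standard error of 0.12 against control females (adjusted p = 0.493), and that of Igf1r was -0.13 with a standard error of 0.11 (adjusted p = 0.378). Against control males the log2 fold changes were -0.05 for Insr (adjusted p = 0.757) and -0.03 for Igf1r (adjusted p = 0.837). Igf1r made up 58.6% of the summed receptor level per length in affected females, 58.4% in control males and 59.0% in control females.

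Igf1, the ligand, had 22.5, 20.5, 17.2 and 22.4 CPM in affected females, against 26.6, 27.3, 25.9 and 26.6 in control males and 18.7, 30.4 and 33.5 in control females. The affected females were all below the control males. They overlapped the control females through control female 1, which was the lowest of its group. The log2 fold change was -0.37 with a standard error of 0.15 against control males (adjusted p = 0.0857) and -0.42 with a standard error of 0.16 against control females (adjusted p = 0.0575), and neither was called. Without control female 1, Igf1 passed against control females, at a log2 fold change of -0.63 (adjusted p = 0.00306). Leaving out the lowest control female raises the control mean by construction, so this pass is no support. Per length Igf1 averaged 2.64 CPM per kilobase in affected females, 3.41 in control males and 3.52 in control females.

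The 4 binding proteins all had higher means in affected females than in either control group, but only Igfbp5 was called. Igfbp5, which binds IGFs and attaches to extracellular matrix, had 623, 535, 657 and 625 CPM in affected females, against 379.7, 456, 476 and 455 in control males and 577, 436 and 391 in control females. All affected females were above the control males, while control female 1 overlapped the affected group. Igfbp5 rose against control males, with a log2 fold change of 0.47, a standard error of 0.12 and an adjusted p of 0.0195. It also rose against control females, with a log2 fold change of 0.38, a standard error of 0.13 and an adjusted p of 0.0398. The call against control females was lost when affected female 1 (adjusted p = 0.0729), 3 (0.121) or 4 (0.0915) or control female 2 (0.140) or 3 (0.190) was omitted. That against control males was lost without affected female 3 (adjusted p = 0.0738), affected female 4 (0.0528) or control male 1 (0.0732).

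Igfbp2, the binding protein whose gene lies beside Igfbp5, had 60.7, 53.2, 48.7 and 37.1 CPM in affected females, 37.0 to 45.0 in control males and 38.3 to 39.9 in control females. Affected female 4 lay below every control female and inside the range of the control males, and the other 3 lay above all controls. Its log2 fold change was 0.35 with a standard error of 0.13 against control females (adjusted p = 0.0602) and 0.29 with a standard error of 0.12 against control males (adjusted p = 0.102). Without affected female 4, Igfbp2 passed in both, at 0.46 against control females (adjusted p = 0.0156) and 0.41 against control males (adjusted p = 0.0326). Since affected female 4 had the lowest Igfbp2 of its group, leaving it out raises the affected mean by construction. These passes are therefore no support for a rise. Igfbp4, a binding protein cleaved by PAPP-A, had 245 to 298 CPM in affected females, 207 to 267 in control males and 227 to 234 in control females. The affected females were above the control females without overlap and overlapped the control males, and the log2 fold changes were 0.25 (adjusted p = 0.0682) and 0.16 (adjusted p = 0.222). Igfbp3, the main IGF carrier of adult serum and a p53 target gene in human cells, had 27.4 to 31.4 CPM in affected females, 24.4 to 31.4 in control males and 21.7 to 28.8 in control females. It overlapped both control groups, with log2 fold changes of 0.23 against control females (adjusted p = 0.154) and 0.16 against control males (adjusted p = 0.295). Summed per length, the 4 binding proteins averaged 286 ± 16.3 CPM per kilobase in affected females, 235 ± 11.6 in control males and 230.3 ± 19.9 in control females. Igfbp4 and Igfbp5 supplied most of it, with 132 and 104 CPM per kilobase in affected females, 118 and 75.4 in control males and 111 and 79.9 in control females.

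Counting the 9 genes by range, affected females did not overlap control females for 2 genes above (Irs2 and Igfbp4) and 1 below (Insr), where 20.2% of all genes lay above and 20.0% below. Against control males 1 lay above (Igfbp5) and 1 below (Igf1), where 10.1% and 9.43% of all genes did. Between control males and control females 0 of 9 lay above and 0 below, where 2.99% and 2.54% of all genes did.

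Control female 1 differed from its group in tissue markers. It was the control female nearest to the mean of the affected females for Irs4, Igf1 and the 4 binding proteins. For Irs1, Irs2 and Igf1r it was the farthest, and for Insr it was neither. Its summed level of 18 early neuron markers was 275 CPM, against 465 and 547 CPM in control females 2 and 3, and its summed level of surface ectoderm and otic markers was 354 CPM, against 229 and 207 CPM. Early neuron markers summed to 251 to 310 CPM in affected females, 356 to 546 in control males and 275 to 547 in control females. In affected females 10 of 18, or 55.6%, were called lower and 0 higher in each comparison, where 15.0% of all genes were called lower against control females and 10.7% against control males. Surface ectoderm and otic markers summed to 382 to 436 CPM in affected females, 233 to 312 in control males and 207 to 354 in control females. Of 16 tested, 12 were called higher and 1 lower against control females, and 11 higher and 1 lower against control males, where 13.0% and 9.51% of all genes were called higher. Of 16 head mesenchyme markers 2 were called higher against control females and 1 against control males, 12.5% and 6.25%, which is no more than those shares. Their median log2 fold change was 0.34 against control females and 0.16 against control males, where that of all genes was -0.00 and -0.02. Summed levels overlapped at 607 to 767 CPM in affected females, 653 to 905 in control males and 679 to 797 in control females. Neural crest markers summed to 487 to 567, 501 to 520 and 468 to 503 CPM and endothelial markers to 299 to 376, 296 to 362 and 334 to 353 CPM, each in affected females, then control males, then control females. Of 11 neural crest markers, 5 were called higher and 2 lower against control females, or 63.6% called where 28.0% of all genes were. Against control males 2 were called higher and 2 lower, or 36.4% where 20.2% of all genes were. Of 13 endothelial markers 2 were called lower against control females, or 15.4%, near the 15.0% of all genes called lower there. Against control males 0 were called. Primitive erythroid markers summed to 1155 to 2362 CPM in affected females, 2178 to 3758 in control males and 571 to 4465 in control females, with control female 1 lowest and 0 of 11 called. The marker lists were chosen with earlier results of these data known, so the shares called in them are a description. No marker of these lists was at 0 in every library, and their part in the values of the 10 genes was not tested.

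The labels were checked on a few genes. Ccng1, a p53 target, had 21.8 to 24.5 CPM in affected females, 27.5 to 33.5 in control males and 74.7 to 93.8 in control females, while Ddx3y, on the Y chromosome, had 83.4 to 115 CPM in control males and at most 0.212 CPM in females. The neural markers Sox2, Pax6 and Nes were present in all libraries, at 99.3 CPM or more for Sox2 and 82.9 CPM or more for Pax6. The 14 neural progenitor markers, which include them, summed to 1427 to 1722 CPM in affected females, 1397 to 1781 in control males and 1392 to 1776 in control females, and the groups overlapped. Single markers moved in both directions, with 4 called higher and 3 lower against control females, 7 of 14 where 28.0% of all genes were called, and 0 higher and 1 lower against control males. Fabp7, a fatty acid binding protein of radial glia, fell to 23.1 ± 4.25 CPM in affected females, against 57.7 ± 14.4 in control males and 73.5 ± 36.4 in control females, with log2 fold changes of -1.68 against control females (adjusted p = 0.00253) and -1.32 against control males (adjusted p = 0.00999). Against control females the transcription factors Sox2, Sox3, Sox9 and Sox21 rose with 0.39, 0.72, 0.40 and 0.56 (adjusted p = 0.0207, 0.0216, 0.0319 and 0.00549), while the receptor Notch1 and the filament protein Vim fell with -0.53 and -0.40 (adjusted p = 0.0337 and 0.0387). The calls of Fabp7 and Sox21 held with any single library left out, while those of Sox2, Sox3, Sox9, Notch1 and Vim were lost in 3 to 6 of 7 cases (adjusted p up to 0.179). The part of these changes in the values of the 10 genes was not tested. Xist, the RNA that silences 1 X chromosome in female cells, had 1435 to 2167 CPM in affected females, 8.72 to 13.2 in control males and 4391 to 5959 in control females.

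Since Irs4 is X-linked, its values were set beside those of the rest of the X chromosome. The tested X-linked genes were 529, Xist included. Their median log2 fold change, taken without Xist, was 0.18 against control females and 0.22 against control males, where that of all genes was -0.00 and -0.02. Of all 529, 29.7% were called higher and 10.0% lower against control females, where 13.0% and 15.0% of all genes were. Against control males 32.9% were called higher and 3.59% lower, where 9.51% and 10.7% of all genes were. Irs4 lay above that shift, with 12 of the 529 genes at a larger log2 fold change against control females and 14 against control males. Over all 14542 genes, 113 and 92 had a larger one. Irs4 was chosen for its rise in affected females, so these ranks follow from its selection and are a description. Of the 5 tested genes on each side of Irs4, 3 of 10 were called higher and 0 lower in each comparison of affected females. That is near the X-wide shares called higher. Their median log2 fold change was 0.25 against control females and 0.27 against control males. Tmem164, a transmembrane protein gene 969 kb away, rose in both, with log2 fold changes of 0.37 (adjusted p = 0.0106) and 0.35 (adjusted p = 0.0143). With 1 library left out at a time, the call of Tmem164 was lost against control males in 2 of 8 cases (adjusted p up to 0.0622). Acsl4, an enzyme that activates polyunsaturated fatty acids, had 0.36 (adjusted p = 0.0441) and 0.43 (adjusted p = 0.0211), calls lost in 5 of 7 and 3 of 8 cases (up to 0.127 and 0.078). The collagen genes Col4a5 and Col4a6, the nearest on one side, had 0.09 and 0.27 against control females and 0.25 and 0.44 against control males, of which only the last was called (adjusted p = 0.0269, up to 0.0978 with single libraries left out). Nxt2, the nearest on the other side, had -0.27 and -0.00. Kcne1l, a regulatory subunit gene of potassium channels, had the largest change of the neighbours against control females but not against control males. Its level was low, at 2.69 to 3.91 CPM in affected females, 2.26 to 2.96 in control males and 1.38 to 2.60 in control females. It rose with 0.77 against control females (adjusted p = 0.0395), a call lost in 5 of 7 cases (up to 0.167), and had 0.30 against control males (adjusted p = 0.346). None of the 10 neighbours reached the log2 fold change of Irs4 in either comparison, a contrast that the selection of Irs4 favours. Whether the X-wide shift or the lower Xist has a part in the Irs4 level was not tested.

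**Figure D3:**
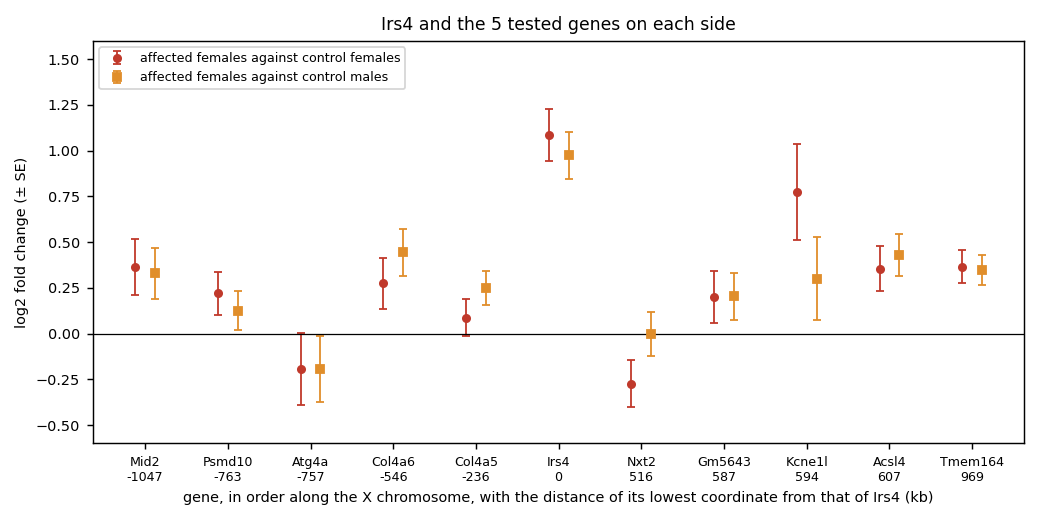
Log2 fold change (y axis, ± SE) of Irs4 and the 5 tested genes on each side of it, in order along the X chromosome with distance in kb, in affected females against control females and against control males. Irs4 lies at 1.09 and 0.97, and its neighbours between -0.27 and 0.77 against control females and between -0.19 and 0.44 against control males.

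The 5 genes closest to Irs4 in pattern were Capn6, Grb7, Smarca1, Renbp and Sult4a1, measured by the root mean square difference of log2 CPM centred on the mean of the 11 libraries, from 0.15 for Capn6 to 0.17 for Sult4a1. They were chosen for this likeness, so their levels are a description. Capn6, an X-linked calpain without protease activity, averaged 70.2 ± 6.53 CPM in affected females, 31.1 ± 6.01 in control males and 32.2 ± 6.07 in control females. Smarca1, an X-linked chromatin remodelling ATPase, averaged 60.3 ± 6.64, 33.1 ± 6.49 and 36.3 ± 5.54 CPM, and Renbp, also X-linked, 14.3 ± 2.10, 7.95 ± 1.15 and 8.35 ± 2.29 CPM in the same order. Grb7 on chromosome 11, an adaptor of receptor tyrosine kinases, averaged 13.6 ± 1.92 CPM in affected females, 7.21 ± 1.63 in control males and 5.85 ± 0.434 in control females. Sult4a1 on chromosome 15, a brain sulfotransferase family member, averaged 8.81 ± 1.53, 5.33 ± 0.230 and 4.85 ± 1.20 CPM. Affected female 3 was the highest library for Irs4 and for all 5 genes. Control female 1 was the highest control female for all 6, and control male 4 the highest control male for all but Sult4a1.

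**Figure D4:**
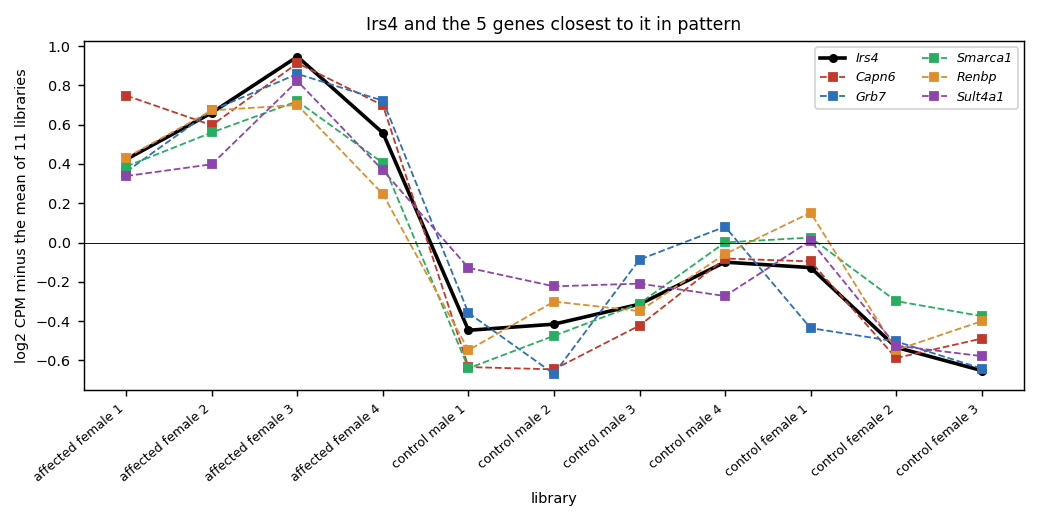
Log2 CPM minus the mean of the 11 libraries (y axis) for Irs4 (solid) and the 5 genes closest to it in pattern (dashed) in each library, affected females first, then control males and control females. All 6 genes are above their mean in the 4 affected females, and affected female 3 is the highest library for each.

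The wider pathway was read from 7 lists of 95 genes, of which 84 were tested. The lists were chosen with earlier results of these data known, so the shares called in them are a description. In affected females 20 of 84 were called higher and 9 lower against control females, or 34.5% called where 28.0% of all genes were, and 18 higher and 5 lower against control males, or 27.4% where 20.2% of all genes were. The counts of single lists are to be read against the same shares, 13.0% of all genes called higher and 15.0% lower against control females, and 9.51% higher and 10.7% lower against control males. The lists' median log2 fold change was 0.21 and 0.18. Between the control groups 0 of 84 were called, with 8 at an unadjusted p under 0.05, 0 by DESeq2 and 9 by limma voom. Single libraries moved these counts. Against control females the 29 calls became 16 when affected female 3 was omitted, 14 for control female 2 and 13 for control female 3. Against control males the 23 became 3 without affected female 3, 8 without affected female 4, 4, 10 and 11 without control males 1, 2 and 3, and 43 without control male 4.

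Of the ligands and their carriers, 4 of 10 were tested and 0 were called against control females. Igf2, the main growth factor of the embryo, averaged 655 ± 43.2 CPM in affected females, 551 ± 43.3 in control males and 557 ± 36.8 in control females. Affected females did not overlap either control group for Igf2, yet the log2 fold changes of 0.23 (adjusted p = 0.0844) and 0.25 (adjusted p = 0.0616) against control females and control males were not called. Igf2r, the receptor that clears IGF-2, was the 1 gene called, against control males, with a log2 fold change of 0.48 (adjusted p = 0.0203). The insulin genes Ins1 and Ins2 had no count in any library. Of 6 tested genes for proteases of the binding proteins and their inhibitors, 1 rose and 1 fell in each comparison. Pappa, which encodes PAPP-A, fell to 29.4 ± 5.40 CPM in affected females, against 42.8 ± 3.64 in control males and 51.3 ± 9.43 in control females, with log2 fold changes of -0.80 against control females (adjusted p = 0.00335) and -0.54 against control males (adjusted p = 0.0176). Adam12, whose human product cleaves IGFBP-3 and IGFBP-5, rose with 0.65 (adjusted p = 0.00988) and 0.59 (adjusted p = 0.0147). The call of Pappa against control males was lost without affected female 3 (adjusted p = 0.069). That of Adam12 was lost against control females without control female 3 (adjusted p = 0.0582) and against control males without affected female 3 or control male 1 (adjusted p up to 0.0622). That of Igf2r was lost without affected female 3, affected female 4 or control male 1 (adjusted p up to 0.076).

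Of 17 tested genes for other receptor adaptors, 4 rose and 1 fell against control females and 3 rose and 1 fell against control males, or 29.4% and 23.5% called. Grb2, which links receptors to RAS, averaged 102 ± 3.22 CPM in affected females, 73.7 ± 12.0 in control males and 72.1 ± 4.34 in control females, with log2 fold changes of 0.50 (adjusted p = 0.00656) against control females and 0.47 (adjusted p = 0.0109) against control males. Gab1 and Gab2, docking proteins that act with Grb2, rose in both as well, Gab1 with 0.30 in each (adjusted p = 0.0218 and 0.0212) and Gab2 with 0.34 and 0.45 (adjusted p = 0.0432 and 0.0158). Sh2b1, an adaptor that enhances insulin receptor signalling, fell with -0.33 and -0.27 (adjusted p = 0.0175 and 0.0367). Of 19 PI3-kinase, AKT and mTOR genes, 2 rose and 2 fell against control females and 3 rose and 2 fell against control males, or 21.1% and 26.3% called, the first below the share of all genes. Pik3r1, the regulatory subunit of PI3-kinase that binds phosphorylated IRS proteins, rose to 67.7 ± 4.04 CPM in affected females, against 47.9 ± 8.43 in control males and 41.7 ± 5.96 in control females, with log2 fold changes of 0.70 against control females (adjusted p = 0.0035) and 0.50 against control males (adjusted p = 0.0137). Rictor, of the mTOR complex that phosphorylates AKT, fell with -0.44 and -0.32 (adjusted p = 0.0111 and 0.0362). Grb2 kept its calls whichever single library was left out, and Pik3r1 and Rictor theirs against control females. Against control males Pik3r1 was lost without affected female 3 or control male 1 (adjusted p up to 0.0597) and Rictor in 6 of 8 cases (up to 0.0998). Gab1 was lost in 3 of 7 cases against control females and 4 of 8 against control males (up to 0.0992 and 0.0768), Gab2 in 5 and 2 (up to 0.138 and 0.0678), and Sh2b1 in 1 and 7 (up to 0.0655 and 0.119).

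Of 19 inhibitors of the pathway, 4 rose and 3 fell against control females and 2 rose and 0 fell against control males, or 36.8% called, against 28.0% of all genes, and 10.5%, against 20.2%. Phlpp1, a phosphatase of AKT, rose with log2 fold changes of 0.33 (adjusted p = 0.0299) and 0.36 (adjusted p = 0.0212), while its paralogue Phlpp2 had -0.42 (adjusted p = 0.018) and -0.29 (adjusted p = 0.0643). Socs2, which dampens growth hormone signalling, rose with 0.50 against control females (adjusted p = 0.0155), and Trib3, a pseudokinase reported to bind AKT, fell with -1.19 (adjusted p = 0.0112) at a mean of 1.15 CPM in affected females, 1.05 in control males and 2.64 in control females. Of 12 FoxO factors and FoxO target genes, 6 rose and 2 fell against control females and 4 rose and 1 fell against control males, or 66.7% and 41.7% called where 28.0% and 20.2% of all genes were. Foxo1 averaged 39.8 ± 2.99 CPM in affected females, 24.8 ± 5.15 in control males and 23.0 ± 2.18 in control females, with log2 fold changes of 0.79 against control females (adjusted p = 0.00324) and 0.68 against control males (adjusted p = 0.00906). The X-linked Foxo4 rose with 0.51 (adjusted p = 0.00665) and 0.58 (adjusted p = 0.00794). Among target genes, Cat, Fbxo32, Sod2 and Gadd45a rose against control females with 0.50, 0.86, 0.40 and 0.44 (adjusted p = 0.00859, 0.00914, 0.0202 and 0.0444). Against control males Cat and Fbxo32 rose with 0.40 and 0.72 (adjusted p = 0.0221 and 0.0181), while Sod2 and Gadd45a were not called. The targets Ccng2 and Cdkn1b, brakes on the cell cycle, had -0.80 and -0.55 against control females (adjusted p = 0.0075 and 0.00248). Against control males they had -0.38 and -0.31 (adjusted p = 0.12 and 0.0223). With 1 library left out, the call of Sod2 held in 4 of 7 cases and that of Gadd45a in 1 of 7. Those of Cat and Fbxo32 against control males held in 3 of 8 each. With single libraries left out, the calls of Foxo1 and Foxo4 held in both comparisons and those of Ccng2 and Cdkn1b against control females, while Cdkn1b was lost in 4 of 8 cases against control males (adjusted p up to 0.076). Against control females Phlpp1 was lost in 5 of 7 cases (up to 0.122), Phlpp2 in 3 (up to 0.0966), Socs2 in 2 (up to 0.0786) and Trib3 without control female 2 (0.0518), and Phlpp1 in 4 of 8 against control males (up to 0.0752).

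Of 7 genes for Igf2 mRNA-binding proteins, related RNA regulators and RNAs of the Igf2 locus, 3 rose against control females and 4 against control males, and 0 fell in either, or 42.9% and 57.1% called where 28.0% and 20.2% of all genes were. Lin28a, which keeps let-7 microRNAs from maturing in early embryonic cells, averaged 1018 ± 82.2 CPM in affected females, 604 ± 183 in control males and 529 ± 190 in control females, with log2 fold changes of 0.95 against control females (adjusted p = 0.0107) and 0.75 against control males (adjusted p = 0.0247). Igf2bp3, which binds Igf2 mRNA, rose with 0.47 and 0.51 (adjusted p = 0.032 and 0.0229), and Igf2bp2 with 0.44 and 0.34 (adjusted p = 0.0182 and 0.0484). The call of Lin28a was lost against control females without control female 2 or 3 (adjusted p up to 0.0582) and in 4 of 8 cases against control males (up to 0.0844), and those of Igf2bp2 and Igf2bp3 in 3 or more cases in each comparison (up to 0.159). H19, the imprinted RNA next to Igf2, rose against control males with 0.37 (adjusted p = 0.0299) and had 0.28 against control females (adjusted p = 0.0798), and its call was lost in 6 of 8 cases (up to 0.102). Of the pathway calls, 11 of 29 against control females held whichever single library was left out, namely Foxo1, Foxo4, Grb2, Pik3r1, Cat, Fbxo32, Pappa, Ccng2, Cdkn1b, Rictor and Rps6kb2. Cat, the catalase gene, Fbxo32, a muscle ubiquitin ligase gene, Sod2 and Gadd45a are named after their values were seen. Against control males 3 of 23 did, namely Foxo1, Foxo4 and Grb2. No pathway call changed sign under any alternative.

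**Figure D5:**
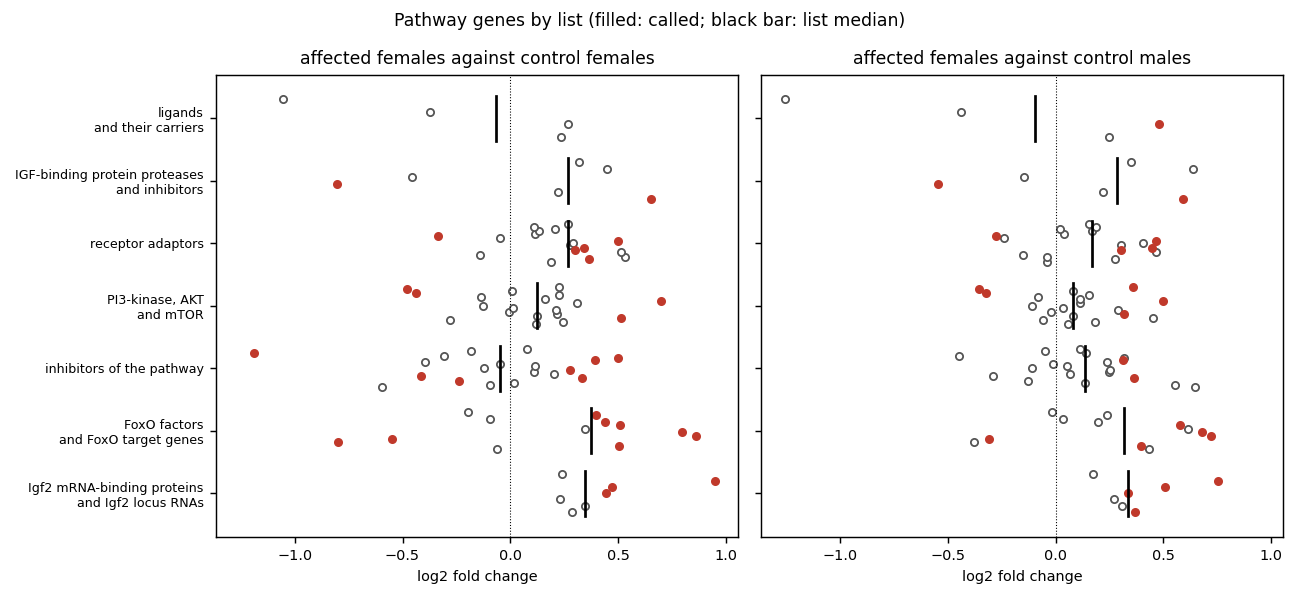
Log2 fold changes (x axis) of the 84 tested pathway genes in 7 lists (y axis), in affected females against control females (left) and against control males (right), with 1 point a gene. Filled points are called and bars are list medians; the list of FoxO factors and target genes has its median at 0.37 against control females and 0.32 against control males.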

How the data were processed

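RNA was sequenced from neural tissue of 11 embryos, 1 library each, after TruSeq preparation of polyadenylated RNA, per the labels' protocols. The authors deposited raw counts and the length of 27179 genes by Entrez identifier, made with featureCounts on mm10 per the submitters' processing notes. The sources used here give no aligner, version, strand setting or annotation, so reads of a member and of an overlapping RNA on the other strand could not be told apart. An RNA overlapping Irs2 had at most 0.374 CPM, and those overlapping Irs4, Igf1r and Igf1 were not analysed here. A joint table repeats these counts and was not used.

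Groups came from the sample titles. Symbols and positions came from RefSeq on GRCm38.p6, which has the coordinates of mm10, for 25275 identifiers, and from GENCODE for 18 more. In edgeR 4.0.16 (R 4.3.3), filterByExpr kept 14542 genes, libraries were scaled by TMM, and all 11 entered 1 quasi-likelihood fit with group as the only factor. P-values were adjusted by Benjamini-Hochberg over all tested genes, and a gene is called under 0.05. The SE is the log2 fold change divided by the square root of F. Log2 CPM used a prior count of 2, and the biological coefficient of variation was 11.9%. The procedure was tested on simulated counts. Results were also computed with RLE scaling, TMM on autosomal genes, no filter, a filter of at least 1 CPM in 3 libraries, DESeq2 1.42.0, limma voom 3.58.1 with sample weights, a robust fit, a fit of the compared groups only, a replicate block, and leaving libraries out. Chi-square over degrees of freedom between libraries of a group was 2.73 to 31.6, so none counted as a duplicate.

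The members and the gene lists were chosen with earlier results of these data known. Genes named in the text are the members, the 4 genes per list that had the lowest adjusted p in any comparison, the 5 tested genes on each side of Irs4, the 5 closest to it in pattern (mean log2 CPM at least 2), and the genes that check labels and tissue. Not all of them are given, and a few others, such as Cat and Sod2, were named after their values were seen.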

Additional observations from a re-analysis of the deposited data

Results flagged for a closer look

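In the groups of 4 embryos, 3 of 20 sets of values held 1 library whose gap to its nearest neighbour, divided by the whole range, was above Dixon's critical value, a limit that chance passes in about 1 in 20 groups. Insr was 74.8 CPM in affected female 2, below the other affected females. Igf1r was 185 CPM in control male 2, above the other control males. Igfbp3 was 31.4 CPM in control male 4, also above the others of its group. The 3 control females were too few for this check. None of these genes was called in any comparison.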

How the results depend on the processing

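No called result changed direction, and Irs4 ranged from 0.97 to 1.26 on the log2 scale against control females over 17 alternatives and from 0.86 to 1.06 against control males over 18. These values chose Irs4, so their range is a description and no support for its rise. Of the 9 other members, 2 were called in affected against control females, 6 with limma voom, and 5 without control female 1 and control male 4 (Irs2, Igf1 lower, Igfbp3, Igfbp4 and Igfbp5). Against control males the 1 call became 5 with limma voom, 2 with only the compared groups in the fit, and 4 without those libraries (Irs2, Igf1 lower, Igfbp3 and Igfbp5). With single libraries left out the counts ranged from 0 to 2, from 0 to 2, and from 0 to 0 between the controls. The adjusted p ranged from 0.00857 to 0.0701 for Irs2 and from 0.000175 to 0.190 for Igfbp5 against control females, and from 0.000748 to 0.0738 for Igfbp5 against control males. Pathway genes called against control females were 54 with limma voom and 45 without those libraries (13 to 34 with single libraries left out), against control males 48 and 48 (3 to 43), and between the controls 9 with limma voom (0 to 0). Over all genes the calls against control females were 7639 with limma voom (1663 to 4579 with single libraries left out), against control males 6397 with limma voom and 6014 without those libraries (361 to 5140), and between the controls 43 with DESeq2 and 1569 with limma voom (18 to 35). The cause was not tested. Among control females, number 1 lay nearest to the affected mean for Igf1 and the binding proteins. Calls of these genes gained without it are therefore no support. Among control males, number 4 had the highest Irs2 and Igfbp3, so calls of Irs2 and Igfbp3 gained without it are no support either.

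Replicate numbers were not taken to pair the embryos: of 10 same-numbered pairs, 3 had deviations correlated over 0.1, with a range of -0.14 to 0.18. With the replicate number as a block, 1 member was called against control females (Igfbp2, adjusted p = 0.0213) and 1 against control males, and 0 between the controls. Against control females Irs2 and Igfbp5 were not called, with adjusted p of 0.0617 and 0.0739. Pathway calls under the block were 22, 30 and 0. With 3 or 4 embryos a group, small changes in genes of low count such as Irs2 are poorly resolved.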
